A study of Danio rerio with 7 samples.

Results

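Erythroid cells of sibling zebrafish embryos were profiled in 4 of the 7 RNA-seq libraries of a study of the ddx41 mutant, namely those labelled sibling with replicate numbers 1, 3, 4 and 5. All 4 are labelled as polyadenylated RNA of gata1-positive cells from sibling embryos at 40 hours post fertilization. RNA extraction used a microprep kit, and library preparation a low-input protocol. The labels give no treatment, no strain and no genotype beyond the word sibling, so wild-type and heterozygous embryos cannot be told apart. The name of the deposited table points to a gata1 dsRed reporter. The labels give neither the gate behind gata1-positive, nor the number of embryos or cells per library, nor whether each library had its own clutch. The SD therefore covers the spread between these libraries, which may be technical. The 3 mutant libraries, of the same age and cell isolation, enter no value here and no groups were compared. The siblings were chosen by their label alone, and what follows describes which genes these cells expressed, at what level, and how closely the 4 libraries repeated each other.

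In the zebrafish embryo the first red blood cells, the primitive erythrocytes, arise from lateral mesoderm, enter the circulation together and finish their maturation there while keeping their nucleus. They are driven by the transcription factor gata1a, fill themselves with haemoglobin made of embryonic alpha and beta globin chains, make haem in their mitochondria from iron taken up through the transferrin receptor, and build a spectrin-based skeleton under an anion-exchanging membrane. Gata1 is also active in the thrombocyte lineage and in some granulocytes.

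The 4 libraries held 13543061 to 14210369 counts and between 22914 and 23753 genes with at least 1 count. Levels are given below as CPM, counts per 1000000 after TMM scaling among the 4 libraries, and a value after ± is the SD over the 4 libraries (n = 4). CPM takes no account of transcript length, so a rank by CPM orders genes by their share of the counts and not by their number of transcripts. Of 26530 genes with a count in any of the 4 libraries, 16592 had a mean of at least 1 CPM, 7566 of at least 10 CPM, 1134 of at least 100 CPM and 67 of at least 1000 CPM. The counts were concentrated: 4 genes held the first 25% of them, 70 genes 50% and 1073 genes 75%. Without the 2 rows with the most counts, 211 genes held 50%. The 2 rows with the most counts, ENSDARG00000080337 and ENSDARG00000082753, had no symbol in the name table used here and held 14.6%, 16.7%, 17.8% and 20.5% of the counts in siblings 1, 3, 4 and 5. Whether they are ribosomal RNA is not known here, and all shares of counts include them. The next row, zgc:158463, is listed by RefSeq under that symbol as a ribosomal RNA and stood at 51401 ± 9364 CPM, although the labels describe the molecule as polyadenylated RNA. Across all genes, the Spearman correlation between 2 libraries was 0.934 to 0.938 over the 6 pairs, a description of genes that share their library's scaling. No library stood far from the other 3 as a whole. Sibling 5 lay alone at one end of the first principal component of the 4, which carried 36.1% of the variance against 33.5% and 30.4% for the other components.

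**Figure D1:**
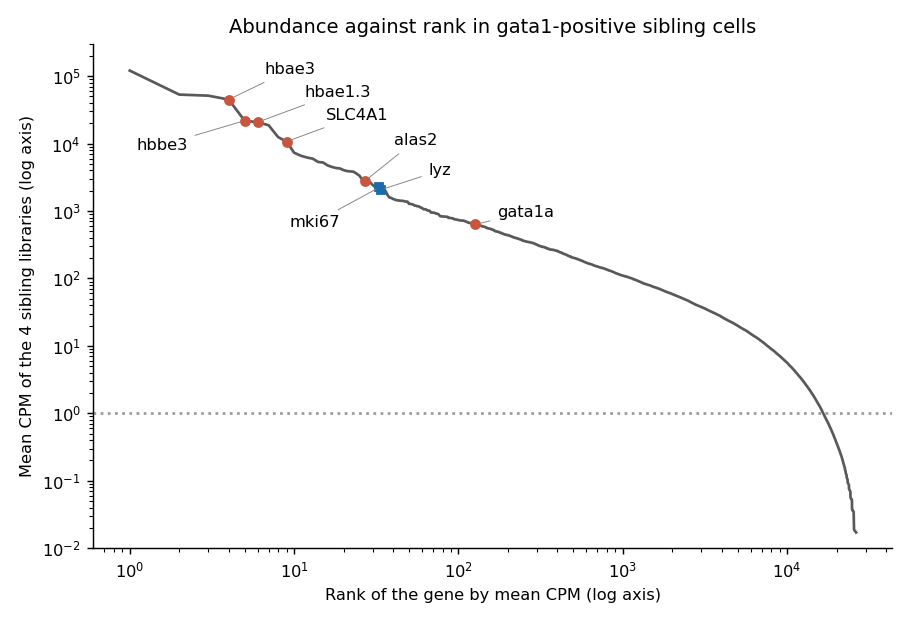
Mean CPM of the 4 sibling libraries (log axis) against the rank of each gene by mean CPM (log axis). The grey curve holds every gene with a count, red circles are the erythroid marker genes, blue squares are mki67 and lyz, and the dotted line is 1 CPM. The globin markers sat at ranks 4 to 6, and the curve crossed 1 CPM after 16592 genes.

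All 6 erythroid marker genes were detected in every library. Embryonic alpha globin hbae3 ranked 4 of 26530 genes, embryonic beta globin hbbe3 ranked 5 and embryonic alpha globin hbae1.3 ranked 6, behind only the rows described above. The marker slc4a1a, the anion exchanger of the red cell membrane, was matched to 2 IDs that share the symbol SLC4A1. The ID ENSDARG00000012881 ranked 9 at 10708 ± 836 CPM, and the ID ENSDARG00000024560 stood at 50.5 ± 4.55 CPM. The first enzyme of erythroid haem synthesis, alas2, held 2725, 2647, 3209.5 and 2581 CPM in siblings 1, 3, 4 and 5 and ranked 27. The transcription factor gata1a, after which the cells are labelled gata1-positive, held 662, 738, 695 and 443 CPM and ranked 127, with sibling 5 below the other 3. The plot of abundance against rank shows these markers along the top of the curve.

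Globin transcripts that could be matched by name took 10.8% ± 1.79 of all counts. In bulk RNA, fewer cells of a type and less RNA per cell cannot be told apart, here and in every level below. The list as first written held 9.67% ± 1.83, and the larger value includes 5 IDs that the name table calls HBE1, which were added after that table was seen because the zebrafish beta globin names were missing from it. Near-identical globin copies can share reads, and how the counting treated such reads is not stated in the labels. Single paralogs are therefore less certain than their sums. The leading alpha globin, hbae3, held 43467, 53521, 43067 and 39797 CPM in siblings 1, 3, 4 and 5. The leading beta globin, hbbe3, held 23475, 28259, 18814 and 16871 CPM. In both genes sibling 3 was highest and sibling 5 lowest.

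The 3 hbae1 genes, further embryonic alpha globins, followed the same order with a wider range. Their summed level was 32313, 39383, 25993 and 20132 CPM in siblings 1, 3, 4 and 5, a 1.96-fold range and a CV of 28.1%. The steepest of them, hbae1.1, ran from 3996 CPM in sibling 3 to 1441 CPM in sibling 5, and hbae1.2 held 6982, 8095, 4537 and 4239 CPM. The pair of abundant HBE1 IDs, beta globins by that name, did not follow this order. Their ID ENSDARG00000087390 held 6851, 6611, 8134 and 7683 CPM and their ID ENSDARG00000045143 held 4610.1, 3952, 4049 and 3551 CPM, and all HBE1 IDs together had a CV of 5.88%. The remaining embryonic alpha globins were lower, hbae4 at 350.4 ± 56.3 CPM and hbae5 at 126 ± 17.4 CPM.

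Both adult alpha globins were low, and the adult beta globins hbba1 and hbba2 were not matched by name. The adult alpha globin hbaa1 held 5.74, 1.97, 2.67 and 2.13 CPM and hbaa2 1.02, 0.0758, 0.0722 and 0.071 CPM, with sibling 1 highest in both. The other 3 HBE1 IDs stood at 1.17, 1.11 and 0.359 CPM on average. Over all globins, 8 of 10 members kept by the abundance filter were lowest in sibling 5, against 26.1% of all 14933 kept genes, and 6 were highest in sibling 3, against 24.8%. The ratio of summed alpha to summed beta CPM was 2.18, 2.41, 2.24 and 2.15 in siblings 1, 3, 4 and 5, with a mean of 2.24 ± 0.115 (SD, n = 4). This is a ratio of counts and carries the unequal lengths of the transcripts, so its level cannot be read. Its beta sum holds hbbe3 and the HBE1 IDs, since hbbe1.1, hbbe1.2, hbbe1.3 and hbbe2 were not matched by name either. A beta globin under another name or none would be missing from that sum, so the evenness of the ratio covers the matched IDs only.

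**Figure D2:**
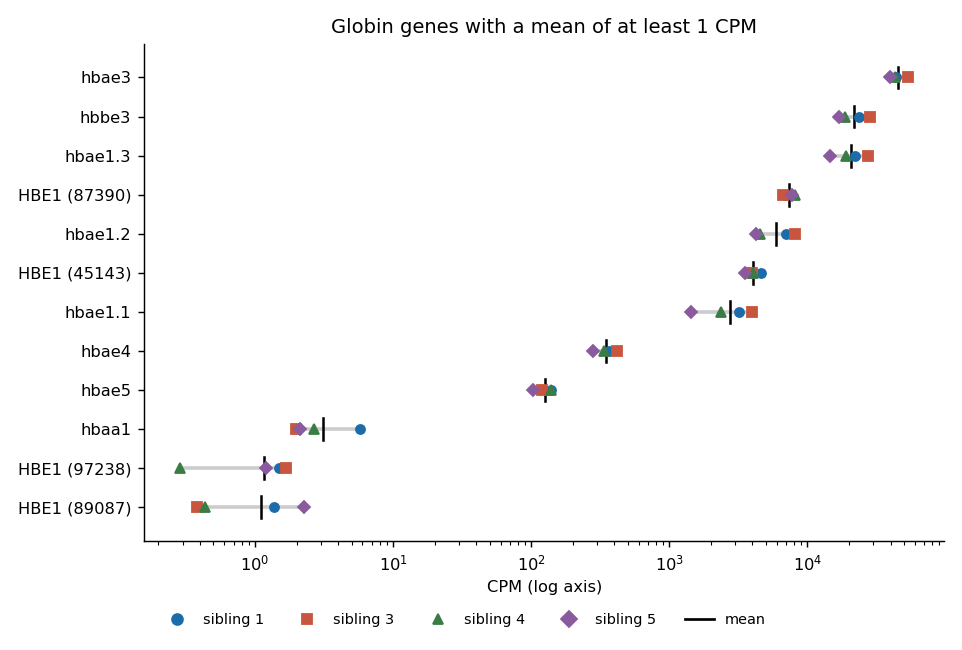
CPM (log axis) of the 12 globin genes with a mean of at least 1 CPM in each of the 4 sibling libraries. Each symbol is 1 library, the black bar is the mean and the grey line spans the libraries, and numbers beside HBE1 are the last digits of its ID. Sibling 3 was highest and sibling 5 lowest in hbae3, hbbe3 and the hbae1 genes, and the adult globin hbaa1 lay far below the embryonic genes.

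Haem synthesis genes were expressed at both ends of the pathway, from alas2 to ferrochelatase. The list of haem enzymes and transporters held 0.872% ± 0.0619 of the counts, and 24 of its 24 IDs with a count reached a mean of 1 CPM. Uroporphyrinogen decarboxylase UROD stood at 789 ± 104 CPM and protoporphyrinogen oxidase PPOX at 668 ± 52.4 CPM. Ferrochelatase FECH, which inserts the iron, held 357, 358, 453 and 342 CPM, with sibling 4 highest. Aminolevulinate dehydratase ALAD stood at 337 ± 41.8 CPM and uroporphyrinogen synthase uros at 215 ± 16 CPM.

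The member of the list above 5 CPM that varied most was the transporter ABCB6 (ID ENSDARG00000074254), at 5.66 ± 2.76 CPM with a CV of 48.7%. Coproporphyrinogen oxidase CPOX held 139, 106, 93.3 and 57.6 CPM in siblings 1, 3, 4 and 5, a CV of 34.1%. CPOX lay highest in sibling 1 and lowest in sibling 5. The mitochondrial transporters ABCB10 and slc25a39 stood at 354 ± 39.4 CPM and 199.9 ± 10.8 CPM. ALAS1, the housekeeping counterpart of alas2, stood at 29.6 ± 2.15 CPM. Of the enzymes that break haem down, biliverdin reductases blvrb and BLVRA stood at 775 ± 104 CPM and 361 ± 19.5 CPM, while haem oxygenase HMOX1 held 57.1, 42.8, 25.3 and 29.8 CPM and was lowest in sibling 4. Sibling 5 held the lowest value of 11 of 23 kept members, against 26.1% of all kept genes. With totals that leave out the top pair of rows it did so for 7, against 19.85%.

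Iron handling genes held 1.14% ± 0.0461 of the counts, most of it in a pair of genes. Ferritin heavy chain fth1a, the iron store, held 4741, 5557, 4488 and 4192 CPM in siblings 1, 3, 4 and 5 and ranked 16. Transferrin receptor tfr1a, the route of iron into red cell precursors, held 3342, 3337, 4067 and 3594 CPM and ranked 24, whereas its paralog tfr1b stood at 25.3 ± 5.15 CPM. Next came ncoa4, which carries ferritin to autophagy, at 916 ± 158 CPM, and the mitochondrial iron importer mitoferrin, SLC25A37, at 479.9 ± 109 CPM.

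SLC25A37 was highest in sibling 4, at 629 CPM, and lowest in sibling 3, at 383 CPM. Its counterpart in other tissues, SLC25A28, stood at 17.1 ± 4.07 CPM. The endosomal iron transporter slc11a2 stood at 316 ± 29.9 CPM and the iron exporter SLC40A1, ferroportin, at 39.4 ± 11.6 CPM. The ferritin-like gene fthl27 was the most variable of the list above 5 CPM: 299, 313, 185 and 178 CPM, high in siblings 1 and 3 and low in siblings 4 and 5. PCBP2, an iron chaperone and RNA-binding protein, was the most even, with a CV of 4.05%.

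Membrane and skeleton genes held 3.09% ± 0.164 of the counts and varied little as a sum, at 30862, 31678, 32618 and 28408 CPM in siblings 1, 3, 4 and 5. Beta spectrin SPTB ranked 11 with 6314, 6636, 7200.1 and 6230.5 CPM. The protein that ties spectrin to actin, epb41b, ranked 14 with 6081, 6089.5, 4861 and 4319 CPM, higher in siblings 1 and 3 than in siblings 4 and 5. Below these came the ammonium transport protein RHAG at 1041 ± 184 CPM, the actin-bundling protein DMTN at 594 ± 77.9 CPM, the spectrin-actin cap add2 at 533 ± 43 CPM and ankyrin ANK1 (ID ENSDARG00000059093) at 525 ± 80.8 CPM.

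The tropomodulin TMOD4, which caps actin filaments, stood at 456 ± 46.3 CPM and TMOD1 at 1.48 ± 0.926 CPM. The Kell blood group protein kel stood at 445 ± 53.7 CPM, the water channel AQP1 (ID ENSDARG00000023713) at 372 ± 38.1 CPM and the mechanosensitive channel PIEZO1 at 164 ± 14.4 CPM. Glycophorin GYPC and XK, partner of the Kell protein, were listed at 1.67 and 1.9 CPM on average. Glucose transporter SLC2A1 reached 7.38 ± 1.42 CPM through its ID ENSDARG00000007412 and 0.146 CPM through its ID ENSDARG00000001437. Of 29 kept members, 11 were highest in sibling 4, against 24.0% of all kept genes.

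Transcription factors and cofactors of the erythroid programme held 0.451% ± 0.0324 of the counts. Behind gata1a stood klf1, the factor that switches on globin and membrane genes, at 489 ± 59.6 CPM, the repressor GFI1B at 468 ± 48.6 CPM and klf17, a zebrafish blood factor, at 425 ± 83.1 CPM. The corepressor CBFA2T3 stood at 346 ± 36.2 CPM and SOX6, which in mouse silences embryonic globin, at 272 ± 37 CPM. The partners of the gata1 complex were LMO2, with a CV of 4.55% at 175 ± 7.99 CPM, TAL1 at 153 ± 15.4 CPM and the gata1 cofactor ZFPM1 at 88.6 ± 15.4 CPM.

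BACH1, a repressor released by haem, stood at 112 ± 8.12 CPM. Of the forkhead factors linked to late maturation, foxo3b held 183, 193, 308 and 248 CPM and foxo3a 55.6, 59.7, 89.6 and 87.9 CPM in siblings 1, 3, 4 and 5, both higher in siblings 4 and 5. The progenitor factor MYB stood at 61.8 ± 5.57 CPM. The lymphoid and globin-switching factor IKZF1 held 95.2, 92.2, 76.6 and 47.8 CPM and was lowest in sibling 5, as were gata1a and klf17, which held 479, 430.5, 485 and 306 CPM. Sibling 4 held the highest value of 20 of 34 kept members, against 24.0% of all kept genes. With totals that leave out the top pair of rows this count was 14, against 20.6% of all kept genes.

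Signalling through the erythropoietin receptor was represented by EPOR at 549 ± 59.9 CPM and its kinases jak2a at 187 ± 11.3 CPM and JAK2 at 42 ± 2.06 CPM. The adaptor GAB1 stood at 294 ± 41.9 CPM. EPOR held 487, 512, 614 and 585 CPM in siblings 1, 3, 4 and 5, higher in siblings 4 and 5. The list as a whole took 0.168% ± 0.0123 of the counts, and 9 of its 23 kept members were highest in sibling 4, against 24.0% of all kept genes.

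Enzymes of gas exchange, redox defence and energy supply held 0.611% ± 0.0418 of the counts. The zebrafish red cell carbonic anhydrase cahz ranked 32 with 2202, 2272, 2527 and 2145 CPM. The peroxide scavenger PRDX1 stood at 1437 ± 154 CPM through its ID ENSDARG00000025350. The ID ENSDARG00000058734, named prdx1 in lower case, stood at 26.8 ± 9.22 CPM, and prdx2 was not matched by name. Thioredoxin TXN stood at 776 ± 63.5 CPM and the glutathione peroxidase gpx1a at 216 ± 21.9 CPM. Among genes of late red cell maturation, XPO7, which exports nuclear proteins during erythroid condensation in mouse, held 689, 871, 973 and 797 CPM, and the mitophagy receptor BNIP3L (ID ENSDARG00000028067) held 247, 251, 396 and 316 CPM. BNIP3L was highest in sibling 4, where foxo3b was also highest, and a tie between them was not tested. Of 29 kept members of the maturation list, 9 were highest in sibling 4, against 24.0% of all kept genes. In sibling 5, 10 were highest, against 25.9%. Ubiquitin conjugase UBE2H stood at 169 ± 19.5 CPM.

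Cell division genes were well represented. The mitosis list held 0.977% ± 0.0372 of the counts and 25 of its 44 IDs reached 100 CPM. The proliferation marker mki67 ranked 33 with 1836, 2318, 2576 and 2219 CPM in siblings 1, 3, 4 and 5. Kinetochore protein CENPF stood at 834 ± 141 CPM and topoisomerase TOP2A at 705 ± 18.1 CPM. Spindle motor kif11 stood at 552 ± 28.9 CPM and mitotic kinases plk1 and CDK1 at 341 ± 8.47 CPM and 205 ± 15.8 CPM. TOP2A and plk1 were among the 10 most even genes above 100 CPM, with CVs of 2.57% and 2.48%.

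DNA replication genes held a smaller 0.256% ± 0.0478 and behaved differently. Their summed level was 2887, 2961, 2419 and 1975 CPM in siblings 1, 3, 4 and 5. The polymerase clamp PCNA held 269, 261, 166 and 113 CPM, high in siblings 1 and 3 and lowest in sibling 5. Thymidylate synthase TYMS held 190.4, 165, 143 and 95.8 CPM and DNA ligase LIG1 152, 176, 122 and 94.4 CPM, with sibling 5 lowest in both. The polymerase subunit POLE2 varied most of the list, at 24.9, 20.2, 9.17 and 7.53 CPM. The ribonucleotide reductase subunits were steadier: RRM2 (ID ENSDARG00000078069) stood at 240.2 ± 16.5 CPM, the most even member above 5 CPM, and RRM1 at 196 ± 15.5 CPM.

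Of 51 matched replication IDs, 1 was at 0 and 50 passed the filter. Of the 50, 40 were lowest in sibling 5 and 31 highest in sibling 3, against 26.1% and 24.8% of all kept genes. The median member lay 0.31 log2 units above the mean of the 4 libraries in sibling 3, and its deviation in sibling 5 was -0.38. The mitosis list followed only in part. Of its 44 members, 19 were lowest in sibling 5, against 26.1% of all kept genes, and 16 in sibling 1, against 24.8%. Its median deviation in sibling 5 was -0.08 log2 units. In sibling 3, 7 were highest, against 24.8%, and in sibling 4, 22 were highest, against 24.0%. The summed level of the mitosis list ranged only 1.17-fold, against 1.5-fold for replication. The G1 cyclin CCND1 stood at 471 ± 59.9 CPM. CCNE2, the cyclin of entry into S phase, held 134, 162, 101 and 76.7 CPM in siblings 1, 3, 4 and 5, highest in sibling 3 and lowest in sibling 5.

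Of the 28 lists, only the globins held more counts than the cytosolic ribosomal proteins. Cytosolic ribosomal proteins held 4.85% ± 0.498 of the counts, and 77 of 79 IDs reached 100 CPM. The small-subunit proteins RPS3A and RPS7 stood at 1564 ± 142 CPM and 1423 ± 34.2 CPM, the latter with a CV of 2.4%. Large-subunit protein RPL35A was the most variable, with 485, 513, 281 and 264 CPM, high in siblings 1 and 3. RPL5 (ID ENSDARG00000020197) was high in the same libraries, with 1753, 1535, 1123 and 1092 CPM. The elongation factors eef1a1l1 and eef2b stood at 4342 ± 425 CPM and 1732 ± 138 CPM. The haem-regulated kinase eif2ak1, which ties translation to haem supply in red cells, stood at 220.0 ± 30.6 CPM.

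Of the 79 ribosomal protein IDs, 42 were highest in sibling 3, against 24.8% of all kept genes, and 52 lowest in sibling 5, against 26.1%. Other scalings moved both these counts and the shares of all kept genes. With plain totals 21 were highest in sibling 3, against 20.4% of all kept genes. With totals that leave out the top pair of rows 27 were lowest in sibling 5, against 19.85% of all kept genes. The 13 protein-coding genes of the mitochondrial genome held 2.28% ± 0.245 of the counts. This list leaves out mitochondrial ribosomal and transfer RNA. Its summed level was 18778, 24483, 22879 and 25231 CPM in siblings 1, 3, 4 and 5, lowest in sibling 1. Cytochrome oxidase subunit MT-CO1 held 4500.1, 7549, 6003 and 6760.2 CPM, and 8 of 13 genes were lowest in sibling 1, against 24.8% of all kept genes. MT-ND5, a subunit of the first respiratory complex, was even, at 1478 ± 87.5 CPM, and the ATP synthase subunit mt-atp8 was the most variable, at 104, 88.2, 212 and 194 CPM, high in siblings 4 and 5.

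Chaperone transcripts were prominent, and their list held 2.33% ± 0.302 of the counts. That share leaves out HSPA2, which was on no list and ranked 30 at 2445 ± 459 CPM. The inducible chaperone hsp70l held 5486, 4424, 6916 and 4143 CPM in siblings 1, 3, 4 and 5 and ranked 15. The constitutive HSPA8 (ID ENSDARG00000068992) held 3799, 3767, 5004 and 4525 CPM, the inducible hsp70.3 3962, 3601, 4621 and 3455 CPM and HSP90AA1 3945, 3636, 4754 and 3120.0 CPM. Sibling 4 was highest in all 4 genes, and it held the highest value of 18 of 37 kept members, against 24.0% of all kept genes.

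Immediate early genes, which respond within minutes to stimulation, handling or dissociation of cells, held 0.281% ± 0.0357 of the counts. The survival factor mcl1a stood at 409 ± 74.2 CPM, the zinc finger factor egr1 at 336 ± 14.2 CPM with a CV of 4.23%, and the antiproliferative BTG2 at 261 ± 37.7 CPM. JUN varied more, at 179, 321, 179 and 283 CPM in siblings 1, 3, 4 and 5. The stress factor ATF3 held 95.7, 119, 119.8 and 151 CPM and FOSB 116, 123, 77.5 and 148 CPM. Sibling 5 held the highest value of 22 of 32 kept members, against 25.9% of all kept genes, and sibling 4 of 0. Sibling 5 was lowest for globins, replication genes and gata1a and highest for immediate early genes. It also held the lowest level of the neutrophil gene lyz and the highest of the skin keratin krt4, given below. Of 13 kept neutrophil members, 3 were lowest in sibling 5, against 26.1% of all kept genes. The part of cell handling and of other cells in these values was not tested.

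Transcripts that mark other cell types were present at unequal levels. Neutrophil markers held 0.289% ± 0.0602, most of it from lysozyme lyz, which ranked 34 with 2381, 2326, 2271 and 1338 CPM in siblings 1, 3, 4 and 5, and sibling 5 lay well below the others. The granule protease npsn held 415, 389.8, 599 and 342 CPM. The list as a whole did not share the low of lyz in sibling 5. Of its 13 kept members, 8 were lowest in sibling 3, against 23.7% of all kept genes. In sibling 5, 3 were lowest, against 26.1%. The neutrophil gene mpx was not matched by name. Thrombocyte genes held 0.144% ± 0.0148, with the platelet-type tubulin tubb1 at 528 ± 99.4 CPM, the von Willebrand receptor subunits GP1BB at 161 ± 8.96 CPM and gp9 at 119 ± 20.3 CPM. The list also counts GFI1B and NFE2, which red cells use. Sibling 4 held the highest value of 6 of 12 kept members, against 24.0% of all kept genes, with tubb1 at 453, 470.4, 671 and 515 CPM in siblings 1, 3, 4 and 5.

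Macrophage and pan-leukocyte genes held 0.213% ± 0.0597 and were highest in sibling 1. The macrophage marker MFAP4 (ID ENSDARG00000088745) held 735, 385, 193 and 236 CPM, and 24 of 36 kept members were highest in sibling 1, against 25.3% of all kept genes. The macrophage perforin MPEG1 (ID ENSDARG00000055290) did not follow, with 114, 73.6, 103 and 146 CPM and its top in sibling 5. The cytokine il1b held 228, 190.1, 136 and 152 CPM. Early progenitor genes held 0.0723% ± 0.000739, led by LMO2 and TAL1, which red cells also use, and the myeloid factor SPI1 stood at 53.8 ± 6.08 CPM.

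Of the tissues outside the blood, endothelium, muscle, nervous tissue, liver and lens left little RNA, and the skin list, given below, held more. Endothelial genes held 0.0176% ± 0.00235, skeletal muscle 0.0297% ± 0.00468, neural genes 0.0495% ± 0.0159, yolk and liver genes 0.0114% ± 0.00378 and lens and retina genes 0.00365% ± 0.000956. No endothelial, muscle, neural, liver or lens gene of these lists reached a mean of 100 CPM. The endothelial list was led by stab1 at 34.7 ± 4.76 CPM and FLI1 at 22.2 ± 6.13 CPM. Its cadherin cdh5 stood at 12.7 ± 5.6 CPM and its receptor kdrl at 5.55 ± 2.03 CPM. Neural RNA-binding protein ELAVL3 held 75.4, 33.3, 31.2 and 82.3 CPM in siblings 1, 3, 4 and 5, higher in siblings 1 and 5. At 0 in all 4 libraries were 4 IDs of the lens and retina list, among them rod opsin rho and the crystallin cryaba, and the neural genes mbpa and gap43.

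By summed level, the list of pigment cell and notochord genes and the skin list were the least even, with CVs of 55.3% and 32.5%. Epidermal and ionocyte genes held 0.165% ± 0.0574, with a summed level of 1920.3, 1073, 1335 and 2244 CPM in siblings 1, 3, 4 and 5. That sum counts the actin-binding protein pfn1, at 371 ± 86.0 CPM, and ca2, which the red cell enzyme list holds too. Skin keratin krt4 held 470.2, 154, 276 and 835 CPM and krt5 54.1, 5.99, 17.9 and 36.7 CPM, both high in siblings 1 and 5. Epidermal anxa1c ran from 0 in sibling 3 to 31.5 CPM in sibling 5. The list of pigment cell and notochord genes summed to 1058, 363, 784 and 329 CPM, a 3.21-fold range. Most of it came from cartilage and notochord collagen COL2A1 (ID ENSDARG00000069093), with 604, 183, 490.0 and 159 CPM, high in siblings 1 and 4. The matrix genes COL9A2, at 104, 30.5, 51.8 and 19.3 CPM, and epyc, at 126, 43.4, 92.5 and 40.2 CPM, repeated that order. The typical member of the list was raised in sibling 1 only. Of 17 kept members, 12 were highest in sibling 1, against 25.3% of all kept genes. In sibling 4, 1 was highest, against 24.0%. The median deviations in siblings 1 and 4 were 0.67 and -0.004 log2 units. Bone and skin collagen col1a1a held 323, 120.4, 99.9 and 172 CPM and was highest in sibling 1. The part of such cells in the erythroid results was not tested.

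**Figure D3:**
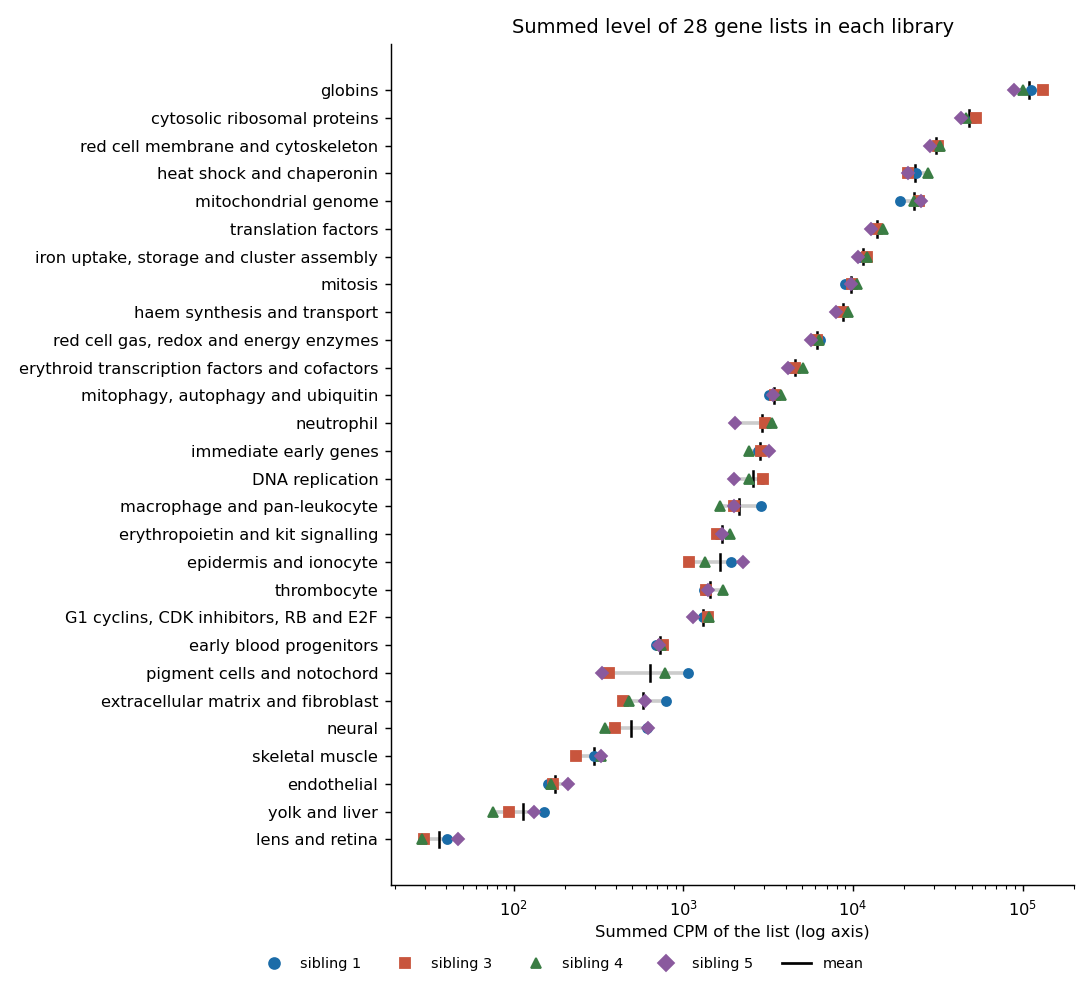
Summed CPM (log axis) of 28 gene lists in each of the 4 sibling libraries, ordered by their mean. Each symbol is 1 library, the black bar is the mean and the grey line spans the libraries. The membrane list spanned 1.15-fold, the mitosis list 1.17-fold and the globins 1.5-fold, and the pigment and notochord list spread widest, 3.21-fold.

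In the median, the spread between libraries was larger than counting gives at every level. Over the 14933 genes kept by the abundance filter, the common biological coefficient of variation was 0.28. The median CV between libraries was 33.5% for 7346 kept genes from 1 to 10 CPM, 17.4% for 6430 genes from 10 to 100 CPM, 12.3% for 1067 genes from 100 to 1000 CPM and 10.8% for the 67 genes above. Counting alone would give medians of 13.2%, 5.47%, 2.05% and 0.588% in these bands. With 1 CPM added to each level, any pair of libraries differed more than 2-fold in 867 to 1071 of the kept genes. The added 1 CPM narrows the gaps of genes at low levels, so some 2-fold gaps in CPM are not counted.

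The most even gene above 100 CPM was adenosine deaminase ADA, with 207, 208, 201 and 205 CPM in siblings 1, 3, 4 and 5 and a CV of 1.4%. The RNA-binding proteins KHDRBS1 and HDLBP followed, with CVs of 2.03% and 2.04%, then EIF5A2, a translation factor, with 2.07%. The chromatin genes srcap and KAT6A had CVs of 2.63% and 2.68%. Being the extremes of more than 1000 genes, these low values were selected and are given as a description. Counting alone gives a CV of 1.87% for ADA and 2.19% for KHDRBS1, above the values observed. For HDLBP and EIF5A2 it gives 1.84% and 1.60%, a little below them.

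Skin and cartilage genes were among those that varied most. Of the 10 with the highest CV at a mean of at least 20 CPM, aep1 held 88.4, 8.26, 26.9 and 146 CPM and keratin krt1-19e 37.5, 3.87, 7.94 and 49 CPM in siblings 1, 3, 4 and 5, high in siblings 1 and 5. The desmosome-linked evpla, an envoplakin, held 15.2, 11.1, 12.3 and 44.8 CPM, and krt5 belonged to the same 10. Cartilage collagens COL9A2 and col9a1b were also among them, col9a1b with 155, 46.6, 76.6 and 33.5 CPM. The single widest gene was si:dkey-153m14.1, with 10.4, 13.4, 189 and 9.24 CPM, high in sibling 4 alone. Coagulation factor f8 was likewise highest in sibling 4, at 17.1, 10.8, 43.7 and 13 CPM.

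**Figure D4:**
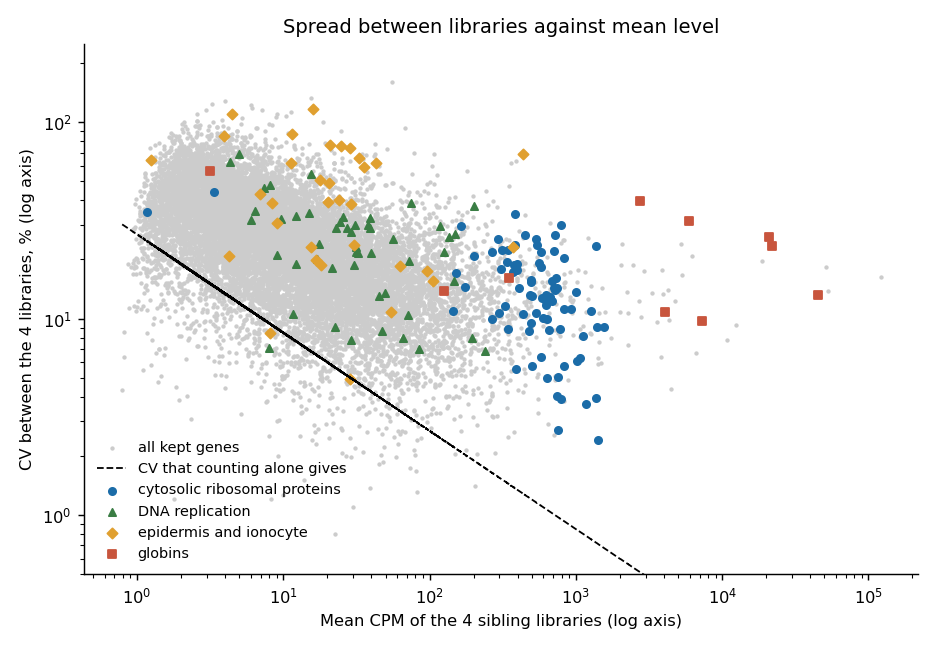
CV between the 4 sibling libraries in percent (log axis) against mean CPM (log axis) for the 14933 kept genes. Grey points are all kept genes, coloured symbols are members of 4 lists, and the dashed line is the CV that counting alone gives. Ribosomal protein genes above 5 CPM lay between a CV of 2.4% and 34.1%, and the skin keratin krt4, at 68.6%, lay near the upper edge of genes of its level.

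Set side by side, the lists showed which libraries departed together. The median member of the globin, replication and ribosomal protein lists lay above the mean of the 4 libraries in siblings 1 and 3 and below it in siblings 4 and 5. The medians were 0.15, 0.26, -0.07 and -0.31 log2 units for globins and 0.10, 0.18, -0.09 and -0.18 for ribosomal proteins in siblings 1, 3, 4 and 5. All medians here rest on TMM scaling. The counts of ribosomal proteins highest or lowest in a library, given above, moved with other scalings. Neural and epidermal lists ran otherwise, above the mean in siblings 1 and 5 and below it in siblings 3 and 4. For neural genes these medians were 0.31, -0.34, -0.42 and 0.30 log2 units. Erythroid transcription factors, at 0.15 log2 units, membrane genes, at 0.09, and chaperones, at 0.13, had their highest median in sibling 4. The thrombocyte list, at 0.14, did so too, and the part of thrombocytes in those values was not tested. The median over all kept genes lay between -0.01 and 0.01 log2 units in every library.

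**Figure D5:**
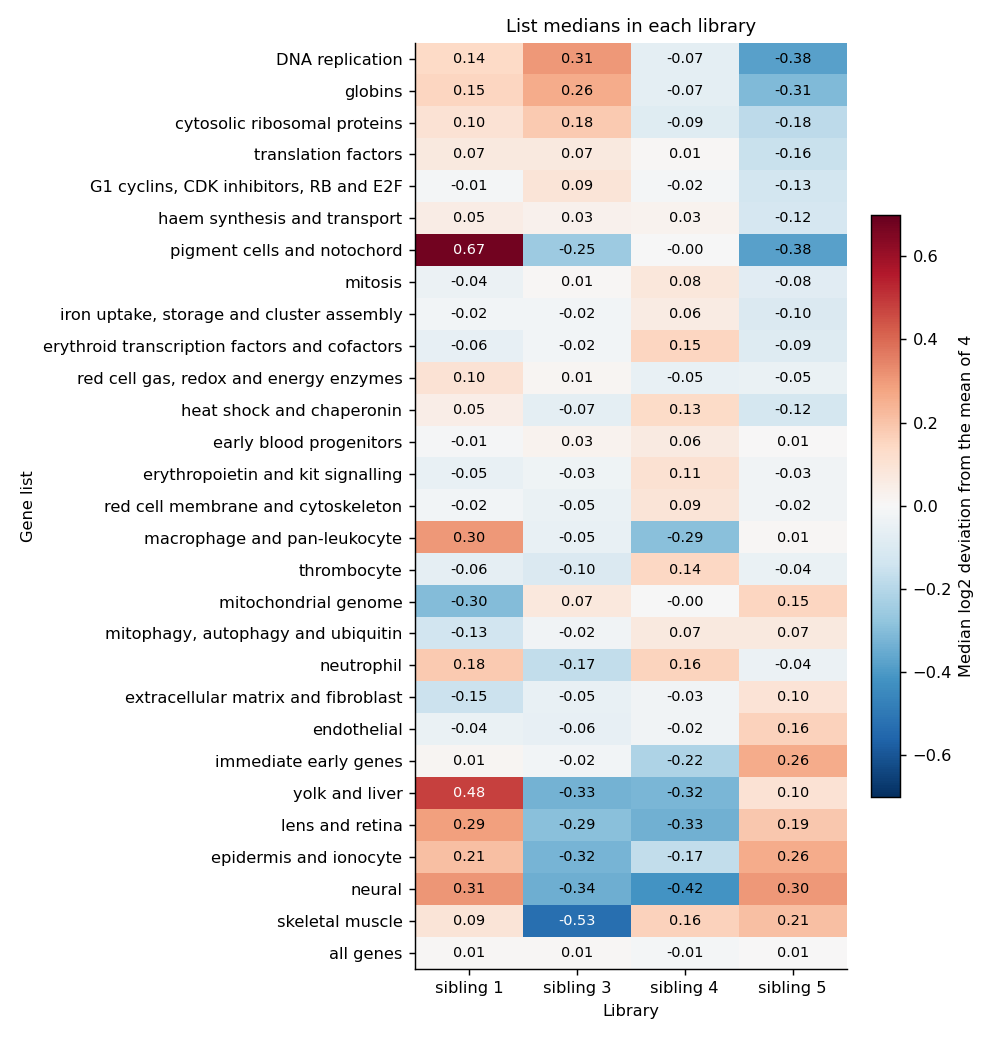
Median log2 deviation of each list's kept members from the mean of the 4 libraries, by library (columns) and gene list (rows), with all kept genes in the last row. Red is above and blue below the mean, and each cell prints its value. Under TMM scaling, replication genes, globins and ribosomal proteins were lowest in sibling 5. Neural, epidermal and lens lists were above the mean in siblings 1 and 5.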

How the data were processed

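The authors deposited raw counts per Ensembl gene for 32105 genes, 1 column per library. The build GRCz10 and the tools STAR 2.4.2a, Cufflinks 2.2.1, Trim Galore, Picard and DESeq2 appear in the submitters' processing notes with no role stated. How reads were assigned to genes, with or without strand, is not given in the sources used here. Overlapping, antisense and near-identical genes may therefore share reads. Columns were matched to samples by title, and 0 columns belonged to other samples. A name table gave 26269 IDs a symbol, often in human style, and 4144 IDs share theirs with another, so those are given with their ID.

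The 4 sibling libraries, of 13543061 to 14210369 counts, were scaled by TMM in edgeR 4.0.16 (R 4.3.3) and expressed as CPM. Genes were kept with filterByExpr (minimum count 10, total 15), which left 14933, and dispersions came from an intercept-only fit, tested on simulated data. DESeq2 1.42.0 was an alternative. With 1 group there is no comparison, so no p-value was made. A chi-square test of each pair of libraries gave 16.0 to 32.3 per degree of freedom, above counting noise, and all 4 were counted as separate. Shares of counts use plain totals. Deviations are log2(CPM + 1) minus the mean of the 4 libraries. Totals limit precision, and counting CVs cover counting error only.

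Of 976 symbols in 28 gene lists, 914 matched, 733 of them exactly and others after a paralog suffix was dropped. The members, lists and naming rule were chosen with earlier results of these data known. The rule names the markers, the 25 genes with the most counts, the leading, most and least variable members of each list, any globin, haem or membrane gene, the 10 most and least variable genes, and the 5 genes furthest above the others in each library. Further members of iron, transcription factor, blood, cell division, chaperone, immediate early, endothelial, neural, lens and other lists were named after their values were seen. No sequences or gene lengths were used. Some list members are not reported here.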

Additional observations from a re-analysis of the deposited data

Results flagged for a closer look

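A library stood apart from the other 3 in 12 of 199 results examined, where its gap to the nearest library took up most of the range of the 4. Chance gives such a gap in about 1 in 20 independent groups. Some of the 199 results were picked for their spread in these libraries, and lists share counts with their members. The 12 can therefore not be set against that rate. The share of the range taken by the gap is given in each sentence.

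Sibling 5 was apart in 5 results. Its level of the neutrophil lysozyme lyz was 1338 CPM against 2271 to 2381 CPM (gap 0.894). The biliverdin reductase BLVRA was 332 CPM against 367 to 372 CPM (gap 0.868). Its share of the list of G1 cell-cycle regulators was 0.114% against 0.136% to 0.138% (gap 0.890). Its share of endothelial genes was 0.0211% against 0.0162% to 0.0166% (gap 0.930), and its envoplakin evpla was 44.8 CPM against 11.1 to 15.2 CPM (gap 0.877).

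Sibling 4 was apart in 4 genes, each time as the highest. For si:dkey-153m14.1 it held 188.8 CPM against 9.24 to 13.4 CPM (gap 0.977). The repressor GFI1B was 541 CPM against 440.4 to 448 CPM (gap 0.926). The collagenase mmp13a was 151 CPM against 81.9 to 86.2 CPM (gap 0.937). The translation factor EIF5A2 was 288 CPM against 276 to 277 CPM (gap 0.921), a small difference.

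Sibling 1 was highest for the actin-binding protein pfn1, at 499 CPM against 315 to 344 CPM (gap 0.846), and lowest for GP1BB, at 148 CPM against 165 to 166 CPM (gap 0.954). Sibling 3 held the highest share of early blood progenitor genes, 0.0734% against 0.0718% to 0.0720% (gap 0.919).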

How the results depend on the processing

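Genes with a mean of at least 1 CPM, 16592 in number, stayed within 1.5 times under other scalings, a 0.5 CPM threshold, a minimum of 10 counts and each library left out. With totals that leave out the 2 rows with the most counts, 211 genes in place of 70 held 50% of the counts and globins took 13.1% in place of 10.8%. The common biological coefficient of variation was 0.418 with no filter, and 0.274 to 0.287 with each library left out, against 0.28. The median per-gene coefficient was 0.265 with DESeq2 dispersions against 0.281. Among kept genes the median Spearman correlation between libraries was 0.942 and the median Pearson correlation 0.961, against 0.936 and 0.970 over all genes, and with a pseudocount of 0.5 the Pearson value was 0.964. Of 162 named genes, all kept their mean within 1 SD under plain totals and under DESeq2 size factors. When the top rows were left out 82 moved further, since every CPM then rises. Leaving out a single library cannot move the mean of 4 libraries by 1 SD, so that setting could not test these means. Of 27 counts of members highest or lowest in a library, the settings with plain totals and with DESeq2 size factors moved 1 and 0 by over 1.5 times, and leaving out the top rows moved 3. Ranking per kb of coding length was not run, since no lengths were at hand. No paired analysis was possible because no groups were compared and no test was made. Depth limits the least abundant genes: for kept genes from 1 to 10 CPM counting alone gives a median CV of 13.2%.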

Other observations

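Among the 67 genes with a mean of at least 1000 CPM, 49 were members of the gene lists, 4 had no symbol, and the others were not on any list and were chosen here after their values were seen. The erythroid nuclear protein hemgn stood at 1583 ± 171 CPM and ranked 38. The AMP deaminase AMPD2 stood at 2679 ± 331 CPM and ranked 29, the nucleoside transporter SLC29A1 at 1444 ± 109 CPM, and the nucleotidase-like nt5c2l1 at 1247 ± 105 CPM. The outer mitochondrial membrane protein tspo, a binder of porphyrins, stood at 1116 ± 103 CPM. The nuclear noncoding RNA malat1 ranked 8 at 12452 ± 1161 CPM. The tubulin gene tuba8l4 stood at 3334 ± 449 CPM and the linker histone histh1l1 at 1014 ± 156 CPM.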
